A study of Mus musculus with 24 samples.

Results

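Myc and 40 genes of ribosome assembly were followed through knockouts of the DOT1L complex in mouse acute myeloid leukaemia cells. The set holds Myc and listed genes of the nucleolus, found by their GENCODE M21 symbols in a table of raw counts, and its 41 genes are part of the 43629 in that table. By role, 12 of them act in assembly of the large ribosomal subunit, 12 in assembly of the small subunit, 7 in transcription by RNA polymerase I and 6 in the box C/D and H/ACA particles that modify RNA, and 3 are nucleolar chaperones. The leukaemia cells, whose bulk RNA was sequenced, are driven by the fusion gene MLL-AF9 and express Cas9. Guide RNAs were brought in by lentivirus at an MOI of 0.3, puromycin at 2 ug/ml was applied for 72 h from 48 h after transduction, and RNA was extracted at day 9. There are 24 libraries in 8 groups, with 3 in each. The groups are a DOT1L knockout, MLLT10 with guide 1 and guide 2, MLLT1 (ENL) with guide 1 and guide 2, MLLT6 (AF17) with guide 1 and guide 2, and a non-targeting control, called NT. DOT1L methylates histone H3 on a lysine of the nucleosome core, and the MLLT proteins bind it. All 8 groups, NT included, carry the fusion, Cas9 and a guide vector. The labels name no clone, and DOT1L and NT had a single labelled guide each.

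Ribosomes are assembled in the nucleolus, where RNA polymerase I makes a long precursor RNA. Small particles guided by snoRNAs modify that precursor, and a large set of assembly factors folds, cuts and exports the subunits. Myc is a transcription factor that pairs with Max, binds the DNA sequence CACGTG and is known to raise the transcription of many genes of this pathway. In MLL-rearranged leukaemia, Myc is a known driver of proliferation, and its level falls when blood cells of the myeloid lineage mature.

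The sequences below show where the recognition sequence of Myc lies in promoters of the set, because Myc binding there is the textbook link between Myc and ribosome assembly. Windows of 300 bases, from 250 before to 50 after each gene start, were read from RefSeq on GRCm38.p6 for 34 of the 41 genes. The letters CACGTG, which read the same on both strands, were found in 7 of the 34 windows (20.6%). The share was 12.2% of the 8070 tested genes with a window and 8.09% of all 27025 genes with a window. Each line gives the motif in capitals with up to 10 bases on either side, in the direction of the gene, from the plus strand for Nop2, Pes1, Mybbp1a, Rrn3 and Wdr43 and from the minus strand for Ltv1 and Utp20.
Nop2, chr6:125131813-125131838: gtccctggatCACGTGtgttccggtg
Ltv1, chr10:13193094-13193119: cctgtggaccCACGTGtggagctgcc
Utp20, chr10:88826765-88826787: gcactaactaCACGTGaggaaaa
Pes1, chr11:3963967-3963992: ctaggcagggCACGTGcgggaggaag
Mybbp1a, chr11:72441357-72441376: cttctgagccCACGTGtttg
Rrn3, chr16:13780474-13780499: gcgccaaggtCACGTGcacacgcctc
Rrn3, chr16:13780641-13780666: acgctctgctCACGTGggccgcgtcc
Wdr43, chr17:71616222-71616247: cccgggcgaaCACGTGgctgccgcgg
A match is a description of the letters and not a measured binding site. The 7 genes with the motif had a median log2 fold change of 0.17 in the DOT1L knockout over NT, and the 26 tested genes whose window lacks it had 0.17. In the MLLT1 knockout over NT, these medians were 0.21 and 0.26.

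Library totals ranged from 2403044 to 7415397 counts. The sources used here state neither separate cultures behind the 3 libraries of a group nor the library kit, and the p-values below therefore reflect spread among libraries that may be technical. Dot1l mRNA stood at 41.6 to 49.0 CPM (counts scaled by TMM to a common library size) in the DOT1L knockout and at 69.7 to 75.1 CPM in NT. Mllt10 stood at 7.98 to 12.1 CPM with its own guides and at 14.7 to 19.1 CPM in NT. Mllt6 stood at 14.9 to 23.3 CPM with its own guides and at 30.1 to 42.2 CPM in NT. Other groups were low too, with Mllt6 at 14.1 to 19.9 CPM in the DOT1L knockout and Mllt10 at 8.06 to 14.4 CPM with MLLT6 guide 1. Mllt1 was not lower with its own guides, with 36.7 to 69.3 CPM with MLLT1 guide 1, 34.95 to 48.5 CPM with guide 2 and 21.8 to 41.2 CPM in NT. The 10 markers of myeloid leukaemia progenitors all had counts in every group, and edgeR called 7 of them changed in the DOT1L knockout over NT. Hoxa9 (-2.27 on the log2 scale), Meis1 (-2.83) and Cd34 (-2.57) were lower and Mpo (2.94), Itgam (3.0), Csf1r (2.57) and Spi1 (1.38) higher. In the DOT1L knockout the summed level of 10 neutrophil granule markers was 95435 to 110711 CPM, against 337 to 445 CPM in NT, and S100a8 with S100a9 took 6.07% to 6.63% of counts in the DOT1L knockout and 0.011% to 0.0187% in NT. Of 7 erythroid markers, 3 had counts in DOT1L-knockout cells or NT, with sums of 1.86 to 3.92 CPM in DOT1L-knockout cells and 67.2 to 96.3 CPM in NT, and Alas2, Hba-a2 and Hbb-bs were at 0 in both. The T cell markers Cd3e, Cd4, Cd8a and Trac and the B cell markers Cd79a, Ms4a1 and Pax5 were at 0 in all libraries. Of 5 fibroblast markers, Col1a1 alone had counts in DOT1L-knockout cells, at 14.6 to 19.96 CPM, while the sum of the list in NT was 0 to 1.25 CPM. In bulk RNA, fewer cells of a type and less RNA per cell cannot be told apart. The part of these shifts in the results below was not tested. A pair of libraries stood apart from the rest of their groups, MLLT1 guide 1 replicate 1 and MLLT6 guide 1 replicate 3, with 1400 and 1112 genes more than 2-fold away from the mean of the other libraries of the group, against 297 to 952 in the remaining 22.

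In the DOT1L knockout, none of the set's genes passed the main test, while the transcriptome around it changed widely. With p-values adjusted by Benjamini-Hochberg over all 10578 tested genes, the quasi-likelihood test of edgeR called 0 of the 40 tested genes of the set in the DOT1L knockout over NT, where it called 21.8% of all genes. DESeq2 also called 0. The count was 0 of 40 in MLLT10 over NT (0.473% of all genes), 0 of 40 in MLLT1 over NT (2.58%) and 0 of 40 in MLLT6 over NT (0%), and DESeq2 called 0 in each. At an unadjusted p under 0.05, edgeR gave 3 of 40 in DOT1L (7.5%, against 33% of all genes), 3 of 40 in MLLT10 (7.5%, against 9.58%), 2 of 40 in MLLT1 (5.0%, against 15.4%) and 1 of 40 in MLLT6 (2.5%, against 6.87%). Noc2l, a nucleolar factor of the large subunit, had 0 to 4 counts per library and was not tested. These counts come from a fit that leaves out the replicate number. An alternative edgeR fit with that number as a block called 6 of 40 genes higher and 0 lower in DOT1L over NT (25.4% of all genes). It called 2 higher and 0 lower in MLLT1 over NT (4.32%), and 0 in MLLT10 and MLLT6.

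A missed threshold does not show equal levels, and the intervals give what the data allow. The 95% interval of the fold change lay wholly within 2-fold for 30 of 40 genes in DOT1L, 34 in MLLT10, 31 in MLLT1 and 33 in MLLT6. It lay within 1.5-fold for 8 genes in DOT1L, 17 in MLLT10, 8 in MLLT1 and 21 in MLLT6. For most of the set in DOT1L, MLLT10 and MLLT1, a change of 1.5-fold is therefore not outside the interval. The median log2 fold change of the 40 genes was 0.18 in DOT1L, 0.11 in MLLT10, 0.25 in MLLT1 and 0.02 in MLLT6, and the median of all tested genes was 0.01, 0.00, 0.01 and -0.00 in the same order. Fold changes were positive for 29 of 40 genes in DOT1L, 30 in MLLT10, 35 in MLLT1 and 24 in MLLT6, and for 49.4% to 50.8% of all genes. These 4 comparisons share the same 3 NT libraries, so their directions are not separate observations. By role, the small-subunit genes had the highest median in DOT1L (0.35) and MLLT1 (0.33), with 11 of 12 positive in each, and the large-subunit genes followed with 0.22 and 0.29.

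**Figure D1:**
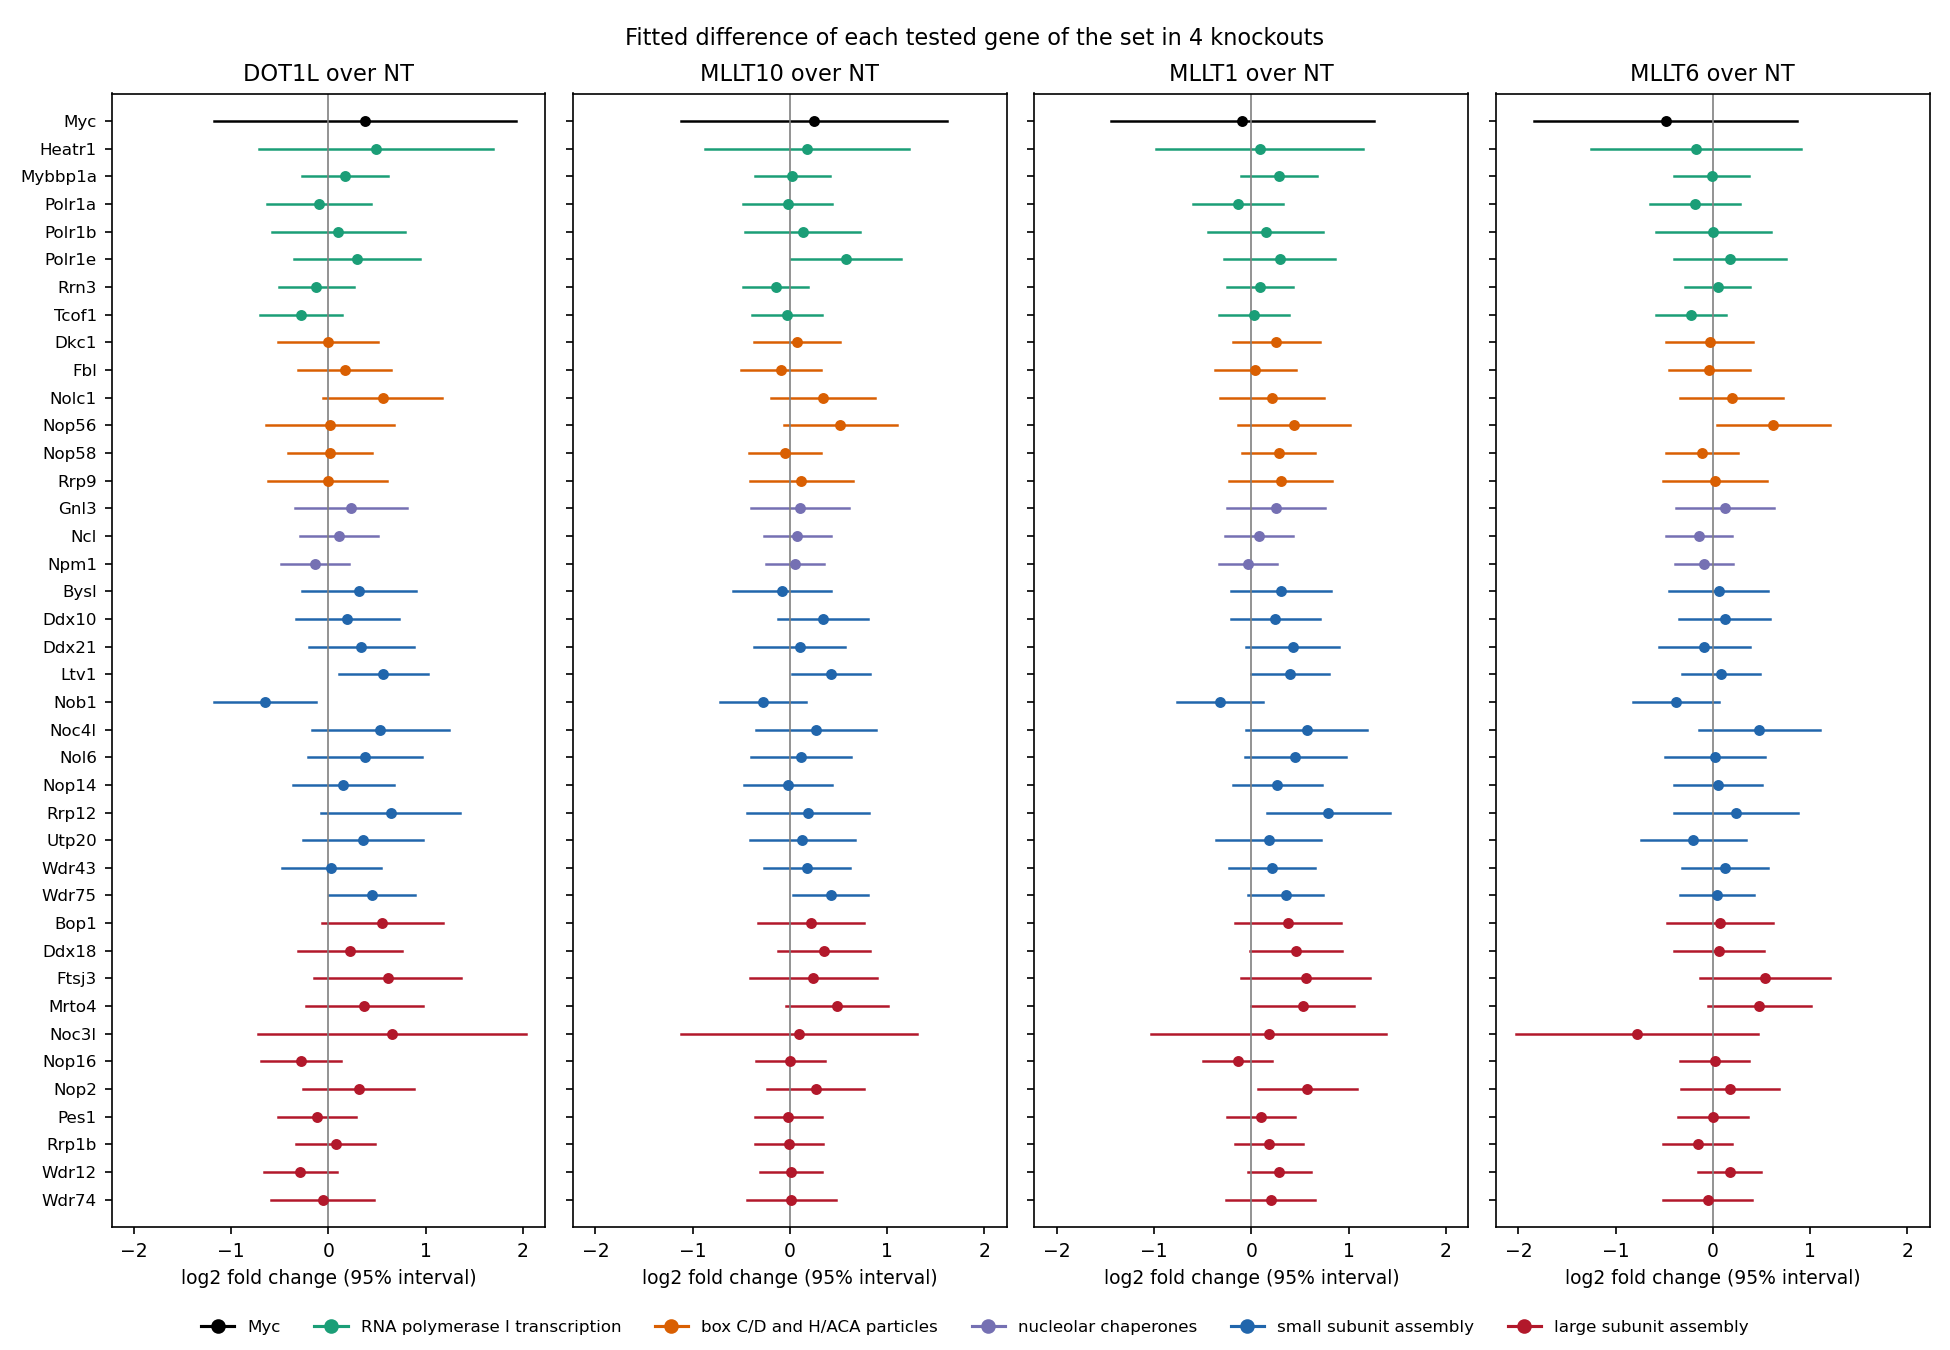
Log2 fold change with its 95% interval (x axis) for the 40 tested genes (y axis), coloured by role, in DOT1L, MLLT10, MLLT1 and MLLT6 over NT. No gene passed the adjusted threshold; points lie between -0.66 and 0.65 in DOT1L, and the widest intervals are those of Myc, Noc3l and Heatr1.

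The whole set took a share of library counts that differed less between groups than within NT. It was 0.589%, 0.481% and 0.454% in the DOT1L knockout, against 0.699%, 0.450% and 0.490% in NT (0.508% ± 0.0715 and 0.546% ± 0.134, SD, n = 3 each). NT replicate 1 held the highest share of all 24 libraries and NT replicate 2 the second lowest. The mean share was 0.582% with MLLT10 guide 1 and 0.590% with guide 2, 0.633% with MLLT1 guide 1 and 0.615% with guide 2, and 0.507% with MLLT6 guide 1 and 0.565% with guide 2. On this plain share the DOT1L knockout mean lay below the NT mean, whereas the TMM-scaled median above was positive. TMM factors were 0.863 to 0.880 in the DOT1L knockout and 0.999 to 1.07 in NT. The direction of the set as a whole in the DOT1L knockout therefore depends on the scaling, although DESeq2 size factors gave a positive median too, at 0.17.

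**Figure D2:**
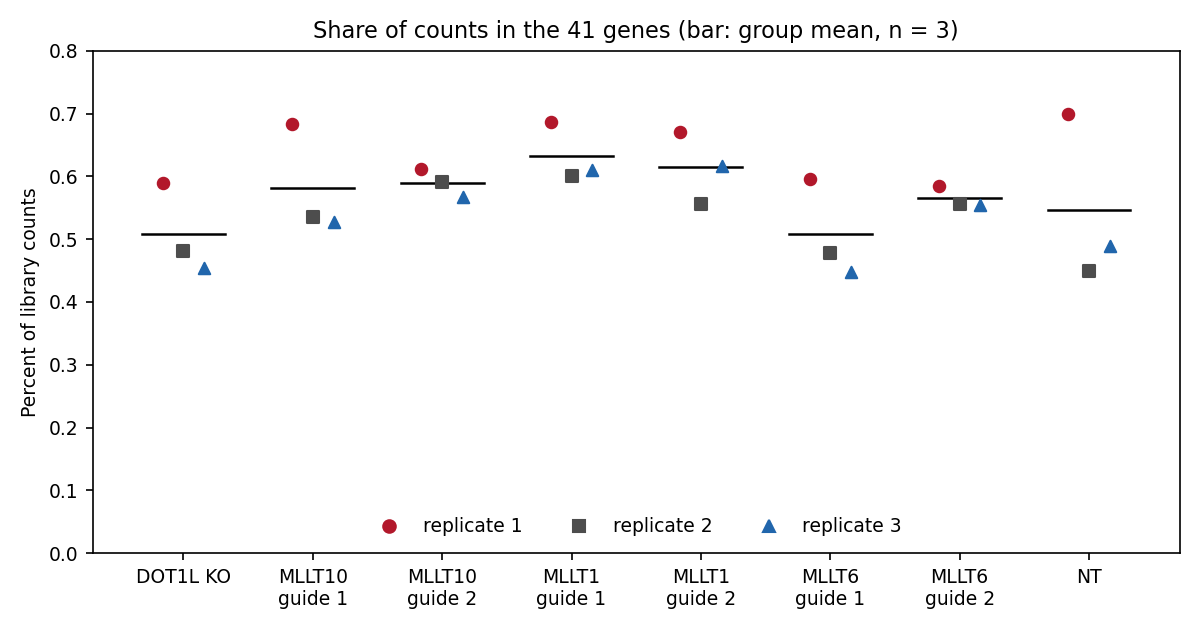
Percent of all counts in the 41 genes (y axis) for each library, by group (x axis), with the group mean as a bar; shapes mark the replicate number. In 8 of 8 groups replicate 1 has the highest share, and the 3 NT libraries reach from 0.450% to 0.699%.

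Myc (ENSMUSG00000022346, chromosome 15, 61985391 to 61990374, plus strand, GRCm38) varied far more between libraries of a group than between groups. It stood at 69.9, 84.2 and 123 CPM in DOT1L-knockout cells, against 40.4, 35.7 and 140 CPM in NT, and these ranges overlap. With MLLT10 it was 52.2, 43.2 and 151 CPM for guide 1 and 41.6, 89.0 and 141 CPM for guide 2. With MLLT1 it was 8.41, 51.4 and 108 CPM for guide 1 and 49.7, 47.8 and 145 CPM for guide 2. The highest library of each of these groups was replicate 3. With MLLT6 it was 36.8, 81.5 and 8.99 CPM for guide 1 and 47.5, 29.1 and 111 CPM for guide 2, so that guide 1 broke this pattern in replicate 3, a library that stood apart. The log2 fold change over NT was 0.37 ± 0.75 (SE, 95% interval -1.18 to 1.93) in DOT1L, 0.25 ± 0.66 (-1.12 to 1.61) in MLLT10, -0.09 ± 0.65 (-1.45 to 1.26) in MLLT1 and -0.49 ± 0.65 (-1.84 to 0.87) in MLLT6. edgeR's adjusted p was 0.788, 0.949, 0.969 and 0.862. The intervals reach past 2-fold in both directions for DOT1L, MLLT10 and MLLT1, and below it for MLLT6. The SD of log2 levels within groups was 1.16 for Myc, higher than for 99.4% of tested genes, whereas the set's median was 0.337 and that of all tested genes 0.322.

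Noc3l, a factor of large-subunit assembly whose yeast counterpart also acts in DNA replication, had the next largest spread, an SD of 1.00 on the log2 scale. It stood at 26.4, 17.8 and 21.03 CPM in DOT1L-knockout cells, against 11.5, 7.19 and 22.9 CPM in NT. Its lowest values were 1.09 CPM in MLLT6 guide 1 replicate 3 and 2.69 CPM in MLLT1 guide 1 replicate 1, the same libraries that had the lowest Myc. The log2 fold change over NT was 0.65 ± 0.66 in DOT1L and -0.78 ± 0.60 in MLLT6 (edgeR, neither called). A comparison of replicate numbers across all groups was added after the data were seen. In it, Myc was higher in replicate 3 than in the other numbers by 1.19 ± 0.31 on the log2 scale (edgeR adjusted p = 0.0303), and by 1.39 ± 0.15 (3.8e-06) without the libraries that stood apart. Noc3l differed in the same direction by 0.80 ± 0.31 (edgeR adjusted p = 0.146) and by 0.95 ± 0.20 (0.00317) without those libraries. The libraries left out held the lowest levels of both genes, and MLLT6 guide 1 replicate 3 was the one that broke the Myc pattern. The smaller adjusted p-values without them therefore partly follow from that choice and are not separate evidence. With all libraries, edgeR called 342 of 10578 genes higher and 137 lower in replicate 3, with 1 higher and 5 lower in the set.

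**Figure D3:**
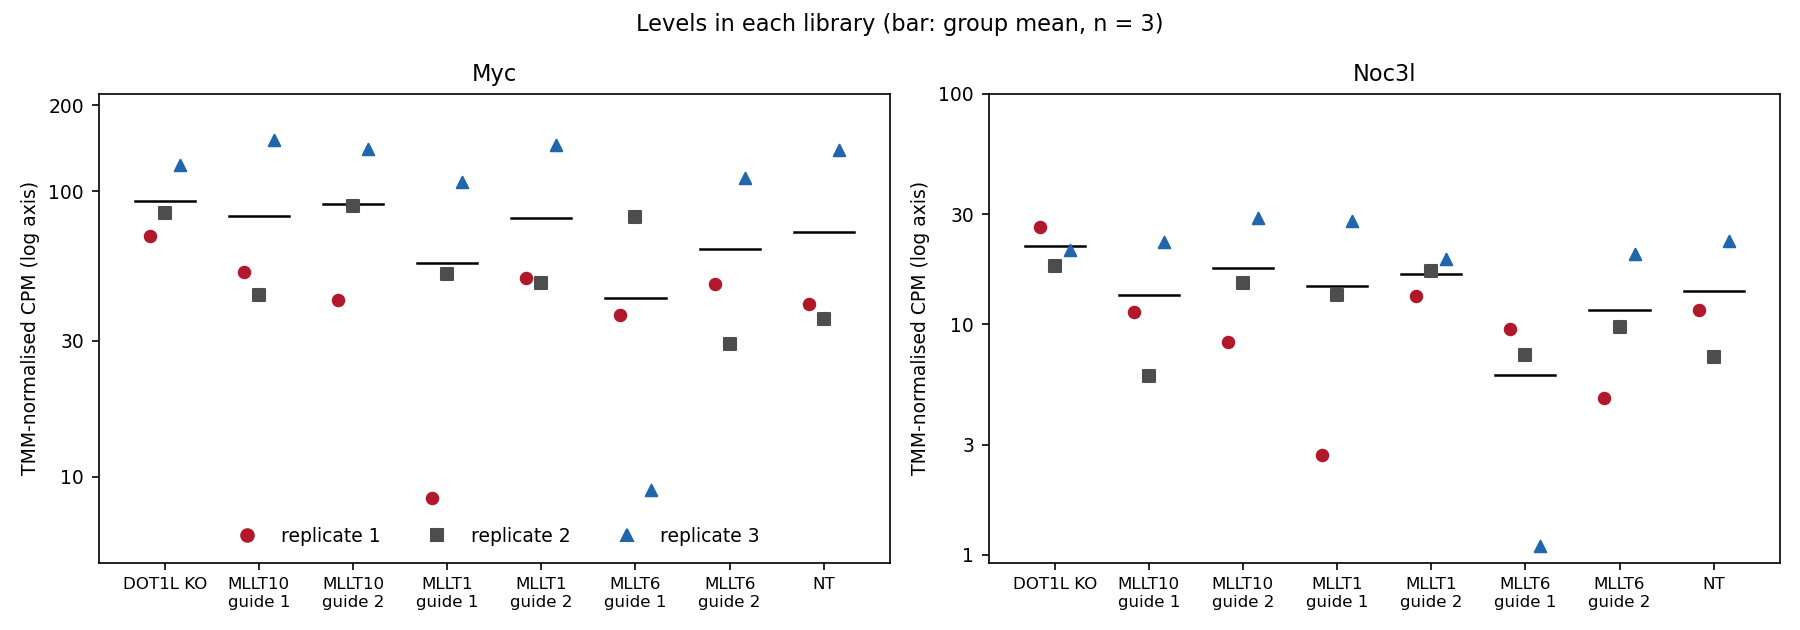
TMM-normalised CPM on log axes (y) of Myc and Noc3l in each library, by group (x), with group means as bars and shapes for the replicate number. Myc was highest in replicate 3 in 7 of 8 groups, and the lowest points of both genes are MLLT1 guide 1 replicate 1 and MLLT6 guide 1 replicate 3.

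Of the 3 nucleolar chaperones, Npm1 and Ncl were the most abundant genes of the set, and none was called. Npm1, which encodes nucleophosmin and is often mutated in human myeloid leukaemia, stood at 921, 747 and 727 CPM in DOT1L-knockout cells, against 1082, 733 and 825 CPM in NT. The groups overlap, and the log2 fold change was -0.14 ± 0.17 in DOT1L, 0.05 ± 0.15 in MLLT10, -0.03 ± 0.14 in MLLT1 and -0.09 ± 0.14 in MLLT6. Ncl, which encodes nucleolin, an RNA-binding protein of the nucleolus, stood at 1574, 1246 and 1159 CPM in DOT1L-knockout cells, against 1558, 1042 and 1095 CPM in NT. Its log2 fold change was 0.11 ± 0.19 in DOT1L and between -0.14 and 0.08 in the other knockouts. Per kilobase of exon, Npm1 averaged 323 CPM and Ncl 123 CPM over all libraries, the highest of the set, and Heatr1 was lowest among the tested genes at 0.696 CPM per kilobase. Npm1 has processed pseudogenes, and reads that the counting could split between copies make its level uncertain. Gnl3, which encodes nucleostemin, a GTP-binding protein of proliferating cells, had 344, 286 and 230 CPM in DOT1L-knockout cells, against 357, 193 and 182 CPM in NT, which overlap.

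Genes of RNA polymerase I transcription had medians near 0, at 0.10 in DOT1L, 0.02 in MLLT10, 0.09 in MLLT1 and -0.01 in MLLT6. Polr1a, the largest subunit of the enzyme, had 39.0, 29.1 and 21.2 CPM in DOT1L-knockout cells, against 38.7, 32.5 and 23.3 CPM in NT, which overlap closely. Rrn3, the initiation factor that links the enzyme to growth signals, had 45.0, 41.9 and 38.5 CPM in DOT1L-knockout cells, against 47.4, 42.8 and 46.3 CPM in NT. Polr1e, another subunit, had the largest value of the role in MLLT10, at 0.57 ± 0.27 (edgeR adjusted p = 0.515). Tcof1, which encodes treacle, was lower with MLLT6 guide 1 than with guide 2 by -0.74 ± 0.20 on the log2 scale, which did not pass (edgeR adjusted p = 0.412). Heatr1 held under 12 CPM in every library and had the widest interval of the role, -0.71 to 1.70 in DOT1L.

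Of the box C/D and H/ACA genes, Fbl and Dkc1 encode the enzymes that methylate RNA and convert uridine to pseudouridine. Fbl stood at 40.9, 34.1 and 25.3 CPM in DOT1L-knockout cells, against 34.2, 22.5 and 32.3 CPM in NT, which overlap, and its log2 fold change was 0.17 ± 0.23 in DOT1L, -0.09 ± 0.20 in MLLT10, 0.04 ± 0.20 in MLLT1 and -0.04 ± 0.20 in MLLT6. Nop56, a core protein of box C/D particles, reached 73.5, 70.8 and 151 CPM in the libraries of MLLT6 guide 1 and 90.1, 82.5 and 63.2 CPM in those of guide 2, against 93.6, 42.8 and 36.2 CPM in NT. NT replicate 1 lay above every MLLT6 library except guide 1 replicate 3, which stood apart. Nop56 was the gene of the set with an unadjusted p under 0.05 in MLLT6 over NT (0.62 ± 0.28, edgeR adjusted p = 0.699). Nolc1, a chaperone of both kinds of particle, had 321, 310 and 292 CPM in DOT1L-knockout cells, against 323, 175 and 129 CPM in NT, and its difference was 0.56 ± 0.29 on the log2 scale (edgeR adjusted p = 0.194). Its DOT1L libraries lay together, and NT replicate 1 was above all of them.

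Small-subunit genes held the set's lowest p-values in the DOT1L knockout. They are described here because of those values, and none was called. Nob1 (chromosome 8, 107412486 to 107425051), the nuclease that makes the end of the small-subunit RNA, stood at 40.9, 41.6 and 35.8 CPM in DOT1L-knockout cells, against 63.1, 59.1 and 63.8 CPM in NT. The groups do not overlap, and the log2 fold change was -0.66 ± 0.25 (95% interval -1.18 to -0.13, edgeR adjusted p = 0.0667). Low values were not confined to DOT1L, since Nob1 was at 30.6 CPM in MLLT1 guide 1 replicate 1 and at 23.9 CPM in MLLT6 guide 1 replicate 3. Without both of these libraries edgeR called it lower in the DOT1L knockout. Ltv1 (chromosome 10, 13178140 to 13193168), a factor bound to late small-subunit precursors, stood at 86.9, 77.1 and 70.0 CPM in DOT1L-knockout cells, against 62.2, 45.4 and 50.5 CPM in NT. These do not overlap either, and the log2 fold change was 0.57 ± 0.22 (0.11 to 1.02, edgeR adjusted p = 0.0699). Noc4l, a nucleolar partner of Nop14, was the remaining gene whose groups did not overlap, with 61.7, 54.0 and 56.1 CPM in DOT1L-knockout cells, against 47.4, 42.8 and 28.4 CPM in NT (0.53 ± 0.34, edgeR adjusted p = 0.298). Groups thus did not overlap for 3 of 40 genes in DOT1L (7.5%), against 38.2% of all tested genes. The count was 0 of 40 in MLLT10 (5.34% of all genes), in MLLT1 (7.81%) and in MLLT6 (2.36%).

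Rrp12, a factor that carries precursor subunits out of the nucleus, had the largest log2 fold change of the set in MLLT1. The libraries of MLLT1 guide 1 held 49.8, 32.1 and 32.7 CPM of it and those of guide 2 held 39.7, 35.9 and 26.03 CPM, against 37.5, 15.01 and 10.1 CPM in NT. NT replicates 2 and 3 lay below all 6 MLLT1 libraries, and NT replicate 1 lay among them. The log2 fold change was 0.79 ± 0.31 (0.16 to 1.43, edgeR adjusted p = 0.194) in MLLT1 and 0.64 ± 0.35 (-0.08 to 1.36, adjusted p = 0.208) in DOT1L. Wdr75, part of the complex that binds the precursor as it is transcribed, had 132, 133 and 120 CPM in DOT1L-knockout cells, against 122, 78.5 and 81.3 CPM in NT. It had an unadjusted p under 0.05 in DOT1L (0.45 ± 0.21) and in MLLT10 (0.42 ± 0.19), with edgeR adjusted p of 0.142 and 0.457. Of the remaining small-subunit genes, Nol6, Ddx21, Ddx10, Utp20, Bysl, Nop14 and Wdr43 had fold changes between 0.03 and 0.38 in DOT1L.

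Among the large-subunit genes, Nop2, which methylates the large-subunit RNA, had 179, 150 and 111 CPM with MLLT1 guide 1, 123, 108 and 111 CPM with guide 2 and 131, 66.9 and 62.2 CPM in NT. Its log2 fold change was 0.58 ± 0.24 (edgeR adjusted p = 0.249). Bop1, Pes1 and Wdr12 encode a complex known as PeBoW, which is needed for the large-subunit RNA to mature. Their log2 fold changes in DOT1L over NT were not alike, at 0.55 ± 0.30 for Bop1, -0.12 ± 0.19 for Pes1 and -0.29 ± 0.18 for Wdr12, and none was called. Ftsj3, an RNA methyltransferase, had 230, 163 and 184 CPM in DOT1L-knockout cells, against 209, 101 and 68.4 CPM in NT (0.61 ± 0.36, edgeR adjusted p = 0.261). Here too the high NT library was replicate 1. Mrto4, a stalk assembly factor, lay at 0.37 to 0.53 in the 4 knockouts, and Ddx18, an RNA helicase, at 0.06 to 0.46.

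Between knockouts, Wdr12 was the single gene of the set that passed. The libraries of MLLT1 guide 1 held 159, 117 and 129 CPM and those of guide 2 held 172, 113 and 143 CPM, against 116, 89.6 and 73.4 CPM in the DOT1L knockout, and the lowest MLLT1 library lay below the highest DOT1L library. It rose in MLLT1 over DOT1L by 0.58 ± 0.16 on the log2 scale (0.25 to 0.91, edgeR adjusted p = 0.0105). With MLLT6 it stood at 142, 134 and 117 CPM for guide 1 and at 117, 127 and 132 CPM for guide 2, all above the DOT1L libraries. It rose in MLLT6 over DOT1L by 0.46 ± 0.16 (0.14 to 0.79, edgeR adjusted p = 0.0296), and DESeq2 called both. Both calls share the DOT1L libraries, and both ended without DOT1L replicate 2 or replicate 3, the MLLT6 call also without MLLT6 guide 1 replicate 1; over the libraries left out in turn, the adjusted p was 0.00293 to 0.123 in MLLT1 over DOT1L and 0.00749 to 0.223 in MLLT6 over DOT1L. That is 1 of 40 genes in MLLT1 over DOT1L (19.6% of all genes called) and 1 of 40 in MLLT6 over DOT1L (29.3%). edgeR and DESeq2 called 0 of 40 in MLLT10 over DOT1L (23.5%), in MLLT10 over MLLT1 (2.68%), in MLLT10 over MLLT6 (0.766%) and in MLLT1 over MLLT6 (4.46%). The numbers with an unadjusted edgeR p under 0.05 in these 4 were 0, 3, 2 and 7 of 40 genes (0%, 7.5%, 5.0% and 17.5%). The shares of all genes were 33.8%, 12.97%, 10.4% and 19.9% in the same order, each above that of the set. All 7 in MLLT1 over MLLT6 were higher in MLLT1, and 38 of 40 fold changes there were positive with a median of 0.23. In MLLT6 over DOT1L, 2 of 40 genes were higher and 4 lower at an unadjusted edgeR p under 0.05, against 39.4% of all genes. That share of all genes was above that of the set. The higher genes were Wdr12 and Nop56, and the lower ones were Ltv1, Noc3l, Utp20 and Wdr75. The largest of these changes was that of Noc3l at -1.43 ± 0.57 (edgeR adjusted p = 0.061).

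**Figure D4:**
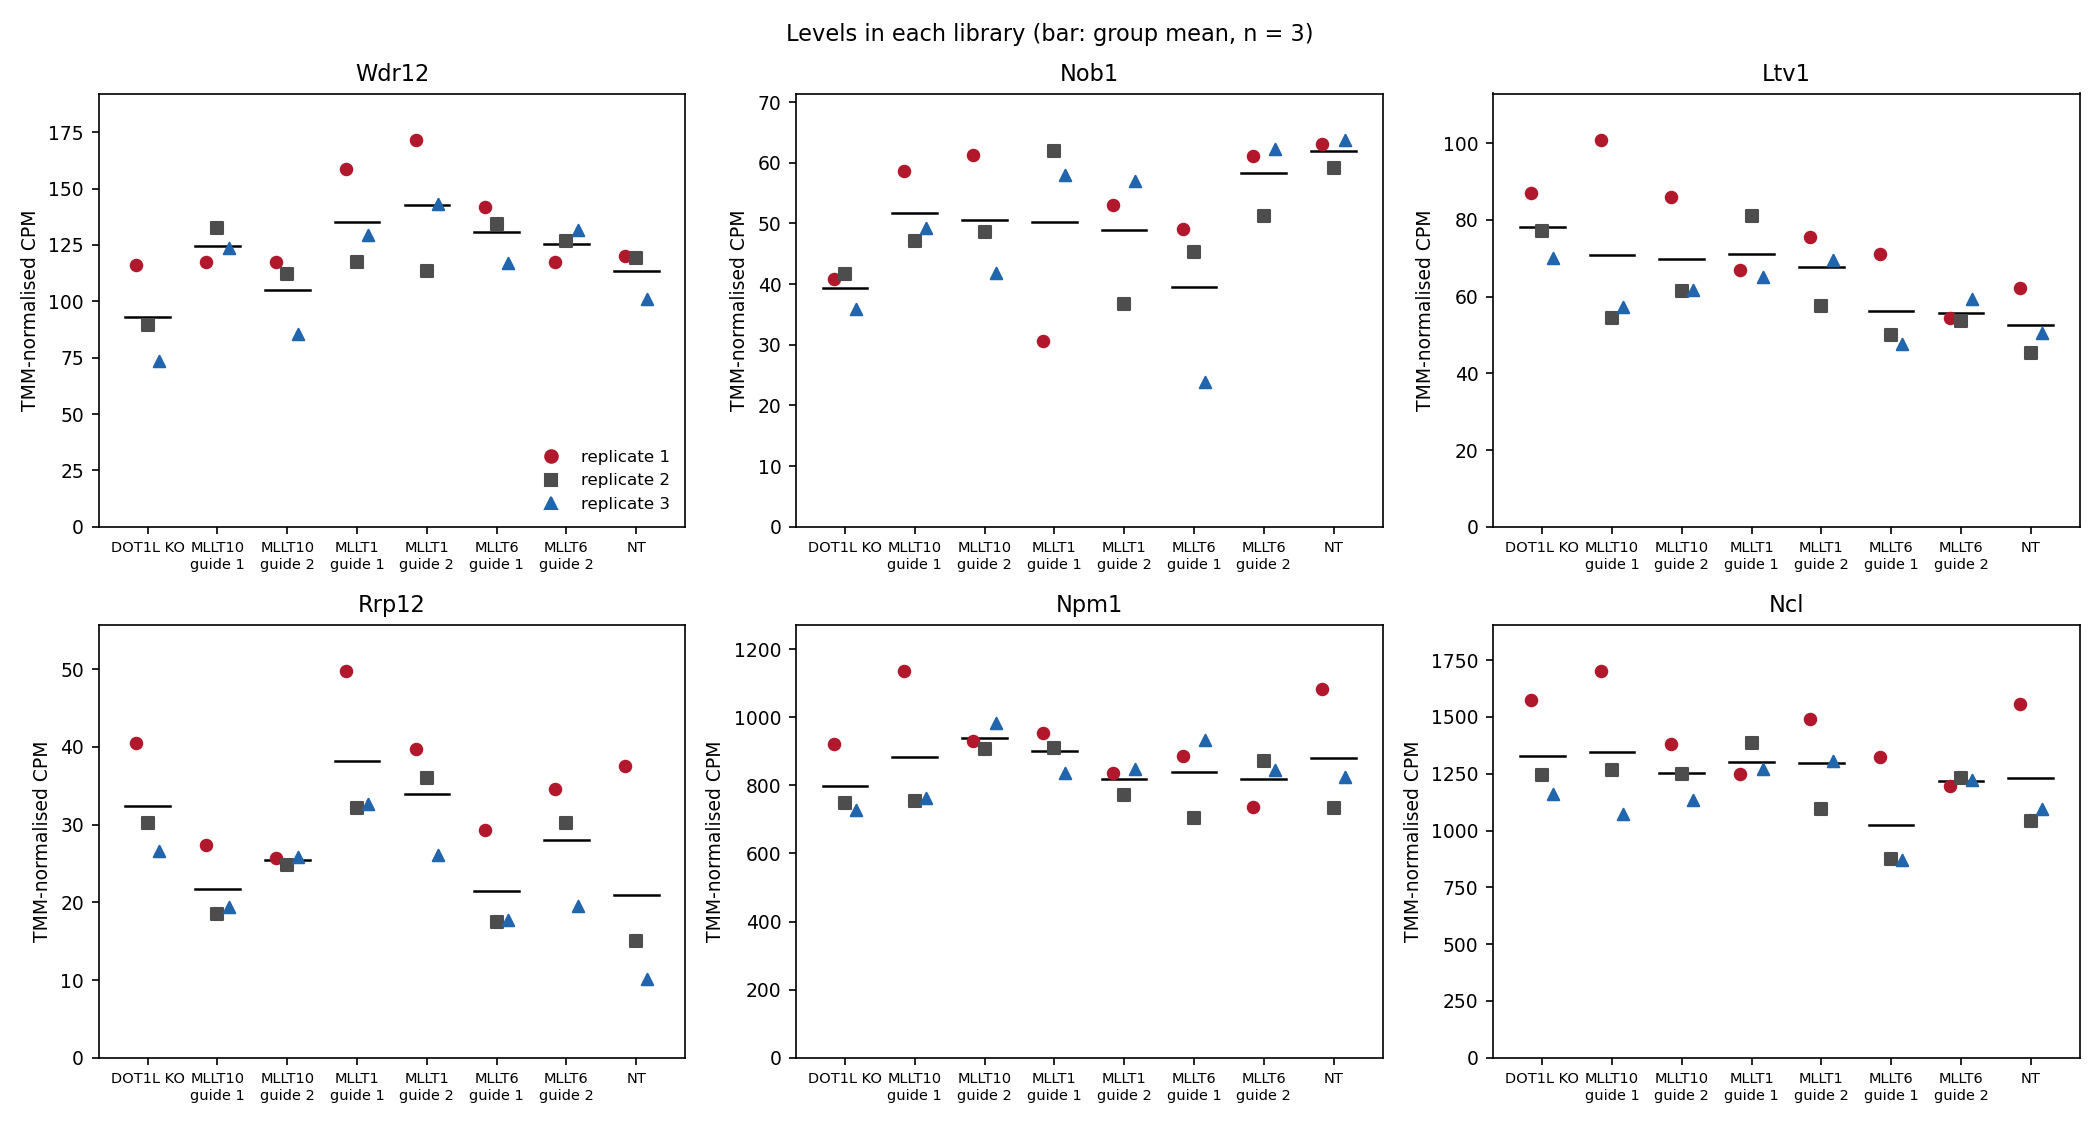
TMM-normalised CPM (y axis) of Wdr12, Nob1, Ltv1, Rrp12, Npm1 and Ncl in each library, by group (x axis), with group means as bars and shapes for the replicate number. The DOT1L libraries of Wdr12 reach from 73.4 to 116 CPM, below all MLLT6 libraries, and NT replicate 1 lies well above the other NT libraries for Rrp12, Npm1 and Ncl.

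With each guide taken alone, edgeR called no gene of the set. The count was 0 of 40 for MLLT10 guide 1 (0.170% of all genes), 0 for guide 2 (0.303%), 0 for MLLT1 guide 1 (1.25%), 0 for guide 2 (1.22%), 0 for MLLT6 guide 1 (0%) and 0 for guide 2 (0%). At an unadjusted p under 0.05, these gave 0, 1, 5, 2, 3 and 0 of 40 genes in the same order (0%, 2.5%, 12.5%, 5.0%, 7.5% and 0%). The shares of all genes were 6.62%, 9.43%, 13.3%, 12.1%, 13.1% and 2.70%. Rrp12 was under this threshold for both MLLT1 guides, at 0.88 ± 0.34 with guide 1 and 0.71 ± 0.34 with guide 2. Between the guides of a gene, edgeR called 0 of 40 for MLLT10, MLLT1 and MLLT6 (0% of all genes in each). At an unadjusted p under 0.05 there were 0, 1 and 4 of 40 (0%, 2.5% and 10.0%), against 1.72%, 2.10% and 9.29% of all genes. The 4 for MLLT6 were Nob1, Tcof1, Rrp9 and Polr1a, all lower with guide 1.

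The distance of the set from NT depended on which control library was left out. Over the NT mean, the median log2 level of the set was 0.45 in NT replicate 1, -0.22 in replicate 2 and -0.20 in replicate 3, and 37, 6 and 8 of 40 genes lay above that mean. The DOT1L libraries had medians of 0.38, 0.17 and 0.04. Replicate 1 of the knockout groups had medians of 0.20 to 0.49, and NT replicates 2 and 3 lay below every knockout library. Without NT replicate 1, edgeR called 7 of 40 genes higher in DOT1L (Bop1, Ddx21, Ftsj3, Nolc1, Rrp12, Utp20 and Wdr75), where 21.7% of 10770 tested genes were called. It then called 3 in MLLT1 (Ddx21, Nop2 and Rrp12), where 4.01% were called, and 0 in MLLT10 and MLLT6. This fit keeps replicate 1 of every knockout group, so replicate numbers are not balanced between the knockouts and NT. The median fold change of the set without NT replicate 1 was 0.46 in DOT1L, 0.39 in MLLT10, 0.58 in MLLT1 and 0.24 in MLLT6. Without NT replicate 2, the median was 0.04 in DOT1L, -0.02 in MLLT10 and -0.06 in MLLT6, so that its direction turned in MLLT10 and MLLT6. It also turned in MLLT6 without NT replicate 3 (-0.06) and without replicate 1 of either MLLT6 guide.

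High levels in replicate 1 appeared in the other groups too. In the comparison of replicate numbers added after the data were seen, edgeR called 19 of 40 genes higher in replicate 1 than in the others (6.07% of all genes were called in that direction) and 0 lower, with a median of 0.34. They comprised 7 of 12 small-subunit genes, 5 of 11 large-subunit genes, 3 of 6 box C/D and H/ACA genes, 3 of 7 RNA polymerase I genes and 1 of 3 chaperones. Nol6, a scaffold of early small-subunit assembly, differed by 0.59 ± 0.08 (adjusted p = 0.000153), Noc4l by 0.67 ± 0.10 (0.00043) and Ncl by 0.32 ± 0.08 (0.01). Nol6 was at 118, 115 and 101 CPM in DOT1L-knockout cells, against 121, 63.2 and 73.5 CPM in NT, with replicate 1 highest in both. Ddx21, Nol6, Noc4l and Wdr74 were highest in replicate 1 in 8 of 8 groups, and 22 genes of the set were in at least 6 of 8. Myc went the other way at -0.95 ± 0.33, which did not pass (adjusted p = 0.0621). The mitochondrial share of counts was also highest in replicate 1 in 8 of 8 groups, at 1.62% to 2.17% in replicate 1 and 1.21% to 1.57% in the others, and its part was not tested. The labels do not say what a replicate number shares across groups.

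Some partners and antagonists of Myc rose in the DOT1L knockout, where Myc itself was not called. Of 14 genes of this network, 11 were tested, and edgeR called 4 of the 11 higher and 0 lower in DOT1L over NT, where 21.8% of all genes were called in either direction, with a median log2 fold change of 0.40. Mxd1, which competes with Myc for Max and is known to be induced as myeloid cells mature, stood at 194, 235 and 221 CPM in DOT1L-knockout cells, against 25.6, 74.4 and 74.7 CPM in NT, with no overlap. It rose by 1.89 ± 0.32 on the log2 scale (1.22 to 2.56, edgeR adjusted p = 0.00012) and passed under all 30 alternatives. Mxd3, of the same family, stood at 11.1, 12.8 and 16.0 CPM in DOT1L-knockout cells, against 2.06, 6.57 and 9.33 CPM in NT (1.15 ± 0.38, adjusted p = 0.0329). The Mxd3 call ended under 5 of 30 alternatives, among them without NT replicate 1 or 2 or without DOT1L replicate 2 or 3. Mlx, a Max-like partner of the glucose-sensing Mondo proteins, rose by 0.56 ± 0.16 (43.2 ± 3.77 CPM in DOT1L-knockout cells and 29.5 ± 3.76 CPM in NT, SD, n = 3 each, edgeR adjusted p = 0.0113). The Mlx call ended under 4 of 30 alternatives, with adjusted p up to 0.169, among them without NT replicate 2 or DOT1L replicate 3. Max, the partner of Myc and of the Mxd proteins, stood at 157, 178 and 174 CPM in DOT1L-knockout cells, against 144, 116 and 124 CPM in NT (0.40 ± 0.14, adjusted p = 0.0475), a call that ended under 21 of 30 alternatives. Mxi1 (0.75 ± 0.32), Mlxip (0.66 ± 0.36), Mnt (0.30 ± 0.21), Mxd4 (0.30 ± 0.19), Mga (-0.09 ± 0.25) and Zbtb17 (-0.24 ± 0.25) were not called. Without NT replicate 2 or without DOT1L replicate 3, 1 gene of the network was called, and without DOT1L replicate 2, 2 genes were. In MLLT10, MLLT1 and MLLT6 over NT, edgeR and DESeq2 each called 0 of 11, and 0 of 11 had an unadjusted edgeR p under 0.05. The 10 neutrophil granule markers were called higher over NT in DOT1L (10 of 10, median log2 fold change 8.56, 21.8% of all genes called). They were also higher in MLLT1 (8 of 10, median 2.57, 2.58% of all genes) and in MLLT10 (5 of 10, median 1.60, 0.473%). In MLLT6, 0 of 10 were called. The part of the granule markers in the change of the network genes was not tested. Pvt1, the noncoding neighbour of Myc, had 5.44 ± 2.35 CPM in DOT1L-knockout cells, against 8.33 ± 4.67 CPM in NT (-0.62 ± 0.41, edgeR adjusted p = 0.323).

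**Figure D5:**
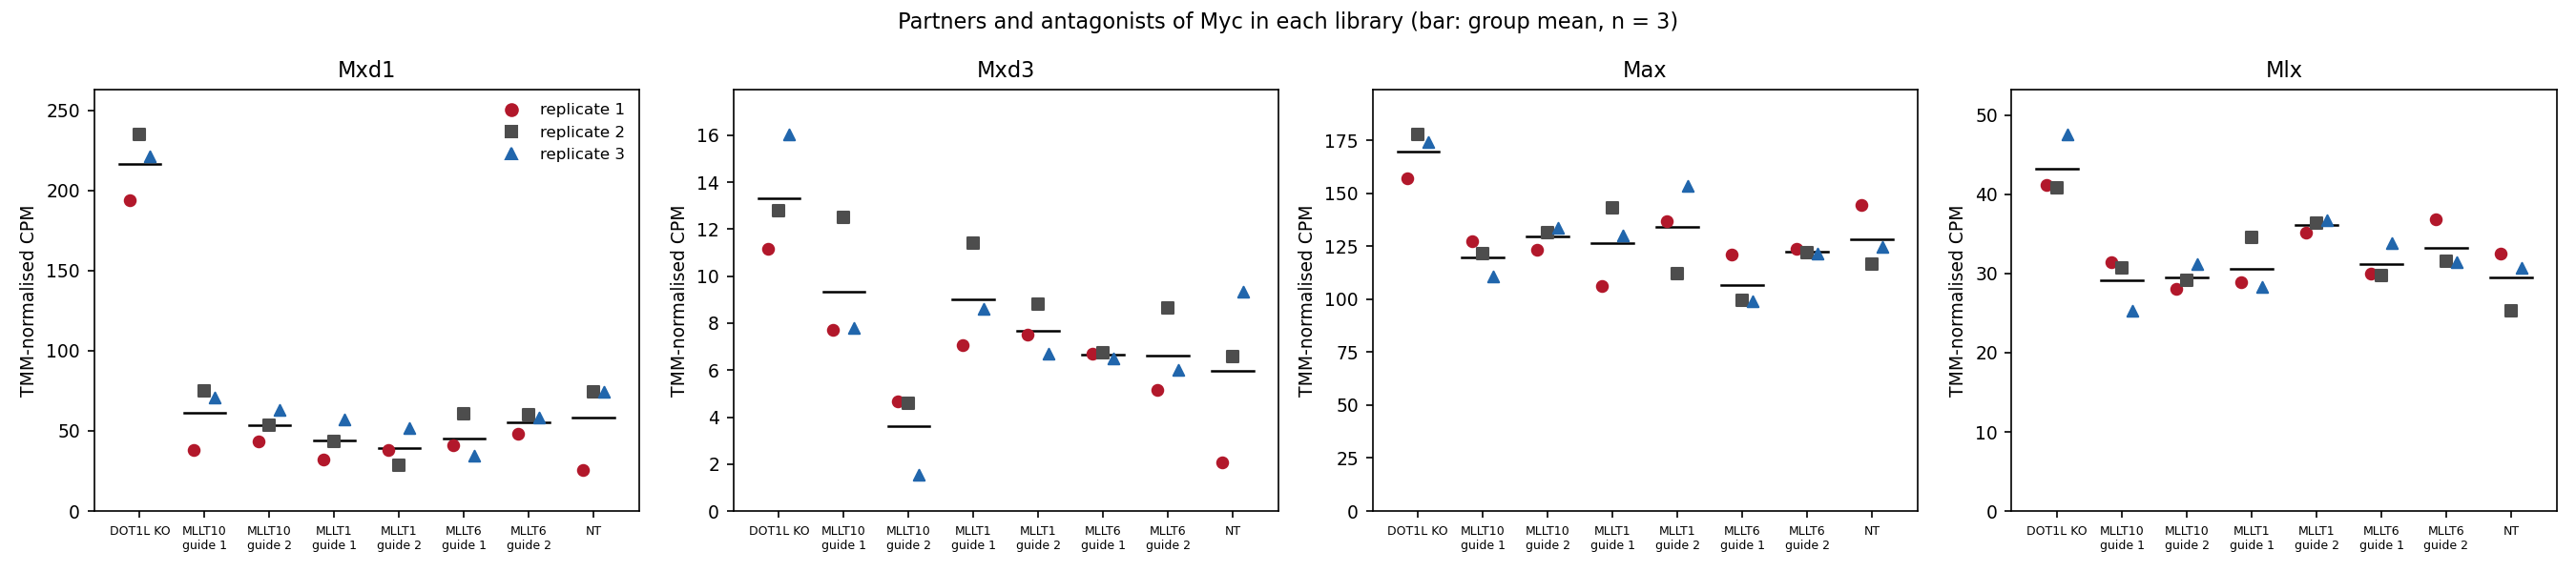
TMM-normalised CPM (y axes from 0) of Mxd1, Mxd3, Max and Mlx in each library, by group (x axis), with group means as bars and shapes for the replicate number. The 3 DOT1L libraries of Mxd1 lie at 194 to 235 CPM, above every other library.

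The rest of the pathway was counted from lists chosen by function. Of 98 tested genes of ribosome biogenesis outside the set, edgeR called 1 higher and 2 lower in DOT1L over NT, with a median of 0.00. It called 21.8% of all genes there. The count was 0 in MLLT10 (0.473% of all genes), in MLLT1 (2.58%) and in MLLT6 (0%). DESeq2 called 5 in DOT1L, where it called 23.1% of all genes, and 0 in each of the others. An unadjusted edgeR p under 0.05 was given by 13 genes in DOT1L, 4 in MLLT10, 9 in MLLT1 and 2 in MLLT6. Mdn1, the giant ATPase that strips factors from large-subunit precursors, rose in the DOT1L knockout (43.6 ± 6.96 CPM, against 22.7 ± 9.66 CPM in NT; 0.95 ± 0.32, adjusted p = 0.0346). Taf1d, a subunit of the RNA polymerase I selectivity factor, and Gnl3l, a relative of nucleostemin, fell by 0.58 ± 0.16 (adjusted p = 0.0101) and 0.47 ± 0.14 (0.014). The count of higher genes was 0 without NT replicate 2 or 3 or DOT1L replicate 1 or 2, and 5 without NT replicate 1. The count of lower genes was 0 without NT replicate 2 and 1 without DOT1L replicate 2 or 3.

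Of 80 ribosomal protein genes, 77 were tested, and edgeR called 7 lower and 1 higher in the DOT1L knockout over NT, where 21.8% of all genes were called. The median log2 fold change of the 77 was -0.30. Rps26, a small-subunit protein, fell to 1334 ± 41.5 CPM in the DOT1L knockout, against 2003 ± 39.4 CPM in NT (-0.59 ± 0.16, adjusted p = 0.00862). Rps28 (-0.37 ± 0.11), Rpl14 (-0.46 ± 0.15) and Rpl12 (-0.43 ± 0.14) were called lower too, as were Rpl3 and Rpl21. The gene called higher was Rpl3l, a relative of Rpl3 known from muscle, at 13.9 ± 3.60 CPM in DOT1L-knockout cells and 5.52 ± 0.907 CPM in NT (1.33 ± 0.42, adjusted p = 0.0243), and it was not called without NT replicate 1 or 3 or DOT1L replicate 3. The count of 7 was 1 without NT replicate 2 or without DOT1L replicate 3, 3 without DOT1L replicate 1, 4 without DOT1L replicate 2 and 14 without NT replicate 1. In MLLT1 over NT, Rps26 (-0.57 ± 0.13, edgeR adjusted p = 0.0199) and Rps28 (-0.37 ± 0.10, 0.0421) were called lower, 2 of 77 where 2.58% of all genes were called. The Rps28 call ended under 19 of 30 alternatives, with adjusted p up to 0.33, among them each NT and each MLLT1 guide 2 library left out and MLLT1 guide 1 replicates 1 and 3. The Rps26 call ended under 3, among them without NT replicate 2 (0.104) or 3 (0.124). These genes have many pseudogenes, so their levels are uncertain where reads were split between copies.

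In the other lists, of Myc targets and of RNA processing, 1 to 4 genes were called in the DOT1L knockout, where 21.8% of all genes were called. Of 25 tested Myc targets outside the pathway, Tfrc, the transferrin receptor, rose (271 ± 25.3 CPM, against 160 ± 46.4 CPM in NT; 0.77 ± 0.18, edgeR adjusted p = 0.0032). Ccnd2, a cyclin of early cell-cycle progression, fell (76.7 ± 13.2 CPM, against 184 ± 1.03 CPM in NT; -1.27 ± 0.22, adjusted p = 0.000122), as did Ldha (-0.52 ± 0.17) and Eif4e (-0.45 ± 0.14). Exosc8 and Mphosph6 of the RNA exosome list (12 tested), Gtf3c3 and Polr3gl of the RNA polymerase III list (19 tested) and Gas5 of the snoRNA host list (6 tested) were called lower. These calls ended under 6 of 30 alternatives for Exosc8, 3 for Mphosph6, 8 for Polr3gl and 6 for Gas5, and those of Ldha and Eif4e under 4 each. Of these, Gtf3c3, a subunit of the factor that recruits RNA polymerase III, had the largest change (17.3 ± 1.75 CPM, against 34.7 ± 2.01 CPM in NT; -1.01 ± 0.20, adjusted p = 0.000719). Tfrc, Ccnd2, Gtf3c3 and Rps26 passed in DOT1L under all 30 alternatives.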

How the data were processed

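Raw read counts per gene were deposited by the authors as a table of whole numbers for 24 libraries; HISAT2, HTSeq, DESeq2, bcl2fastq and the mm10 build are named in the submitters' processing notes. For tool versions, strand setting and library kit, nothing is stated in the sources used here. Without a known strand setting, a gene and a gene that overlaps it, or its antisense partner, may have exchanged reads. Gene IDs were matched to GENCODE M21 symbols (42548 of 43629), and no sequence of Tcof1 is shown. The genes of the set and the lists, and part of the tests, were chosen with earlier results of these data known.

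From these counts, edgeR 4.0.16 in R 4.3.3 fitted all 8 groups together (TMM scaling, filterByExpr by group, quasi-likelihood test, Benjamini-Hochberg adjustment over 10578 genes, threshold 0.05). MLLT10, MLLT1 and MLLT6 were the mean of both guides. SEs were obtained from fold change and F statistic, and 95% intervals from the t distribution with edgeR's moderated degrees of freedom. CPM values are TMM-scaled. The procedure was tested on simulated data. DESeq2 1.42.0, its size factors, no low-count filter, a replicate block, fits restricted to the compared groups and each library left out in turn were alternatives; the comparison of replicate numbers and the fits without both libraries that stood apart were added after the data were seen. Residual degrees of freedom were 16.

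Values in every library were to be given for Myc, Npm1, Ncl, Fbl and every gene of the set called against NT, together with up to 6 called genes of each related list by adjusted p and all tested Myc network genes. A few genes of the related lists are not reported here. As no gene of the set was called against NT in the main fit, the others described were chosen after their values were seen. The same holds for the promoter sequences, which were planned for Myc and called genes: Myc has no window in the RefSeq table used, so all 7 windows with the motif are shown. Motifs were searched in 32851 windows. Exonic bases are shared with another gene for 17 of the 41 genes, and for Noc2l this reaches 20.9%. Same-numbered libraries were correlated after group means were removed; every pair exceeded 0.1 in 6 of 28 pairs of groups, of which 3 included NT (with MLLT10 guide 1, MLLT1 guide 2 and MLLT6 guide 2). The lowest value for DOT1L with NT was 0.06, and the labels give the numbers no meaning, so the numbers were taken to pair libraries in those 3 guide comparisons only.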

Additional observations from a re-analysis of the deposited data

Results flagged for a closer look

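Wdr12 differed between knockouts in the test of the difference itself. It was higher in MLLT1 than in DOT1L by 0.58 on the log2 scale (138.9 and 93.1 CPM) and higher in MLLT6 than in DOT1L by 0.46 (128.1 and 93.1 CPM), while edgeR called none of these groups different from NT.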

How the results depend on the processing

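Counts of called genes of the set changed with several settings; beyond the construction of each setting, the cause was not tested. With no low-count filter, edgeR called 2 genes higher (Ftsj3, Nolc1) and 1 lower (Nob1) in DOT1L over NT (12.03% of all genes). It called 1 higher in MLLT1 over NT (Rrp12, 2.39% of all genes). Between knockouts it called 1 higher in MLLT10 over DOT1L (13.4%) and 2 higher and 2 lower in MLLT6 over DOT1L (17.03%). It also called 1 lower in MLLT10 over MLLT1 (2.16%), 2 higher in MLLT10 over MLLT6 (1.41%) and 2 higher in MLLT1 over MLLT6 (4.45%). With the replicate number as a block, which the libraries share only as a number, edgeR called 6 higher in DOT1L over NT (25.4%). These were Bop1, Ltv1, Noc4l, Nol6, Nolc1 and Rrp12. The block also gave 2 higher in MLLT1 over NT (Nop2, Rrp12, 4.32%) and 5 lower in MLLT6 over DOT1L (32.7%). Further calls were 1 lower in MLLT10 over MLLT1 (4.10%) and 4 higher in MLLT1 over MLLT6 (7.56%). In the 3 guide comparisons whose numbers pair with NT, the block called 0 of 40, as without it. Of the guides whose numbers do not pair with NT, MLLT1 guide 1 had 4 of 40 genes called with the block, where 265 of all 10578 genes were called. MLLT10 guide 2 and MLLT6 guide 1 had 0 of 40. In fits of the compared groups alone, edgeR called 1 lower in DOT1L over NT (Nob1, 23.8% of all genes). It called 1 higher in MLLT10 over DOT1L (24.5%) and 3 lower in MLLT6 over DOT1L (31.02%). Without both libraries that stood apart, it called 1 lower in DOT1L over NT (Nob1, 24.2%), 2 higher in MLLT1 over DOT1L (20.8%), and 1 lower in replicate 1 (Myc).

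Over the 24 libraries left out in turn, the number called was 0 to 7 higher and 0 to 1 lower in DOT1L over NT, 0 to 3 higher in MLLT1 over NT, 0 to 1 higher in MLLT10 over DOT1L, 0 to 1 higher in MLLT1 over DOT1L, and 0 to 1 higher and 0 to 2 lower in MLLT6 over DOT1L. The other counts against NT and between knockouts were 0 in all 24. Of all genes, 16.3% to 22.8% were called in DOT1L over NT and 0.688% to 4.01% in MLLT1 over NT. The shares were 15.9% to 24.5% in MLLT10 over DOT1L, 13.5% to 20.6% in MLLT1 over DOT1L and 21.2% to 30.6% in MLLT6 over DOT1L.

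Some fold changes that never passed changed sign when a library was left out. On the log2 scale, Myc ranged from -0.14 to 1.17 in MLLT10, -0.50 to 0.83 in MLLT1 (0.15 without both libraries that stood apart) and -0.96 to 0.44 in MLLT6. Npm1 ranged from -0.27 to 0.017 in DOT1L, -0.068 to 0.22 in MLLT10, -0.15 to 0.14 in MLLT1 and -0.21 to 0.081 in MLLT6. Ncl ranged from -0.049 to 0.29, -0.032 to 0.28, -0.034 to 0.28 and -0.26 to 0.055 in the same order, and Fbl from -0.019 to 0.34, -0.26 to 0.017, -0.13 to 0.15 and -0.21 to 0.071.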
